A study of Saccharomyces cerevisiae with 180 samples.

Results

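The segregants described here are haploid yeast progeny that carried little transcript of DSE1, set against the other progeny of the same cross, which carried more of it. DSE1 (YER124C) encodes a protein made in newborn daughter cells. The members were chosen by their own DSE1 readout. A segregant counted as low when its DSE1 value was below -2 on the log2 scale, and as high when it was at -2 or above. The limit placed 35 of 86 segregants (40.7%) in the low group and 51 (59.3%) in the high group.

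The study measured RNA of 90 cultures of Saccharomyces cerevisiae, the 86 segregants and 4 parental cultures, on 180 arrays with 2 colours. Each value is a log2 ratio of the culture over 1 reference pool of BY4716, and a culture value is the mean of 2 arrays with the dyes exchanged. BY4716 is a laboratory strain of the S288c background with mating type alpha that lacks LYS2, and it was grown as 2 further cultures. RM11 is a vineyard strain with mating type a that lacks LEU2, URA3 and HO, also grown as 2 cultures. The segregants are haploid offspring of BY4716 and RM11-1a, 1 culture each, and inherited these markers and mating types in varied combinations. The mating types and deletions are known for the strains and are not stated in the labels, and RM11-1a was taken as the strain called RM11. Growth conditions are not given in the sources used here. The separation of cells itself was not measured here.

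When a yeast cell divides, mother and daughter stay joined by a septum of chitin and glucan that must be digested before they part. The enzymes for this are made in the daughter, and a kinase pathway called the RAM network is needed for their expression. AMN1 encodes a daughter protein that holds back mitotic exit, and variants of AMN1 are known to set whether cells of different yeast strains part or stay in clumps. In a culture, fewer daughter cells in the responsive state and less RNA per daughter cell cannot be told apart.

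DSE1 chose the groups, so its values are a description with no test. In the low group it ranged from -5.46 to -2.66 with a median of -4.13 (mean -4.07, SD 0.677, n = 35). In the high group it ranged from -1.498 to 0.80 with a median of 0.02 (SD 0.348, n = 51). The BY4716 cultures stood at 0.08 and 0.14, among the high segregants, and the RM11 cultures at -6.91 and -4.52, below or among the low ones. Just inside the limit were segregants 8-4-c at -2.81, 14-2-c at -2.70 and 9-2-d at -2.66. Just outside were 9-6-d at -1.498, 10-1-c at -0.66 and 4-3-d at -0.43.

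Segregant 9-6-d stood in the high group only through the mean of its arrays, which lay on opposite sides of the limit, at -3.48 with the Cy3 title and 0.48 with the Cy5 title. It was the only segregant whose arrays disagreed about the group. For other genes of daughter separation its arrays gave close values, such as -3.03 and -3.23 for the glucanase-like gene SCW11. It had the lowest value of the high group in 8 of the 10 such genes measured in it. Calls, and most ranges, that turn on this culture are therefore given with and without it. Across genes its arrays correlated with r of 0.827, against a median of 0.754 over all segregants.

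The first comparison asked whether other genes of daughter separation differed with DSE1. All 11 tested members of the daughter separation list were lower in the low group by limma with Benjamini-Hochberg adjustment over all genes, with a median difference of -1.19. The background is high: 1206 of 5557 genes tested (21.7%) were called, 727 lower (13.1%) and 479 higher (8.62%), and the median difference over all genes was -0.01. DSE2 and SCW11, which encode wall proteins that resemble glucanases, fell most, followed by PRY3, DSE4 and AMN1. The list was drawn up with earlier results of these data known, so its shared direction is not independent evidence.

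DSE2 (YHR143W), whose product acts on the septum from the daughter side, ranged in the low group from -7.12 through a median of -4.63 to -2.01. In the high group it ranged from -3.60 through 0.19 to 0.96. The groups met only because of 9-6-d, which held the value of -3.60. The difference was -4.49 (SE 0.20, limma adjusted p = 1.66e-34), or 22.5-fold, and -4.56 (SE 0.18) without 9-6-d. SCW11 (YGL028C) ran from -4.90 through -3.62 to -1.94 in the low group and from -3.13 through 0.07 to 0.56 in the high group. Here too 9-6-d alone overlapped, and the difference was -3.64 (SE 0.12, adjusted p = 4.01e-43), or 12.5-fold, and -3.70 (SE 0.10) without that segregant. LEU2, URA3 and HO, which RM11 lacks, had RM11 means of -5.68, -4.66 and -4.37, so an absent transcript had no single ratio. Where the lower limit of the signal lies for DSE2 and SCW11 was not tested.

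**Figure D1:**
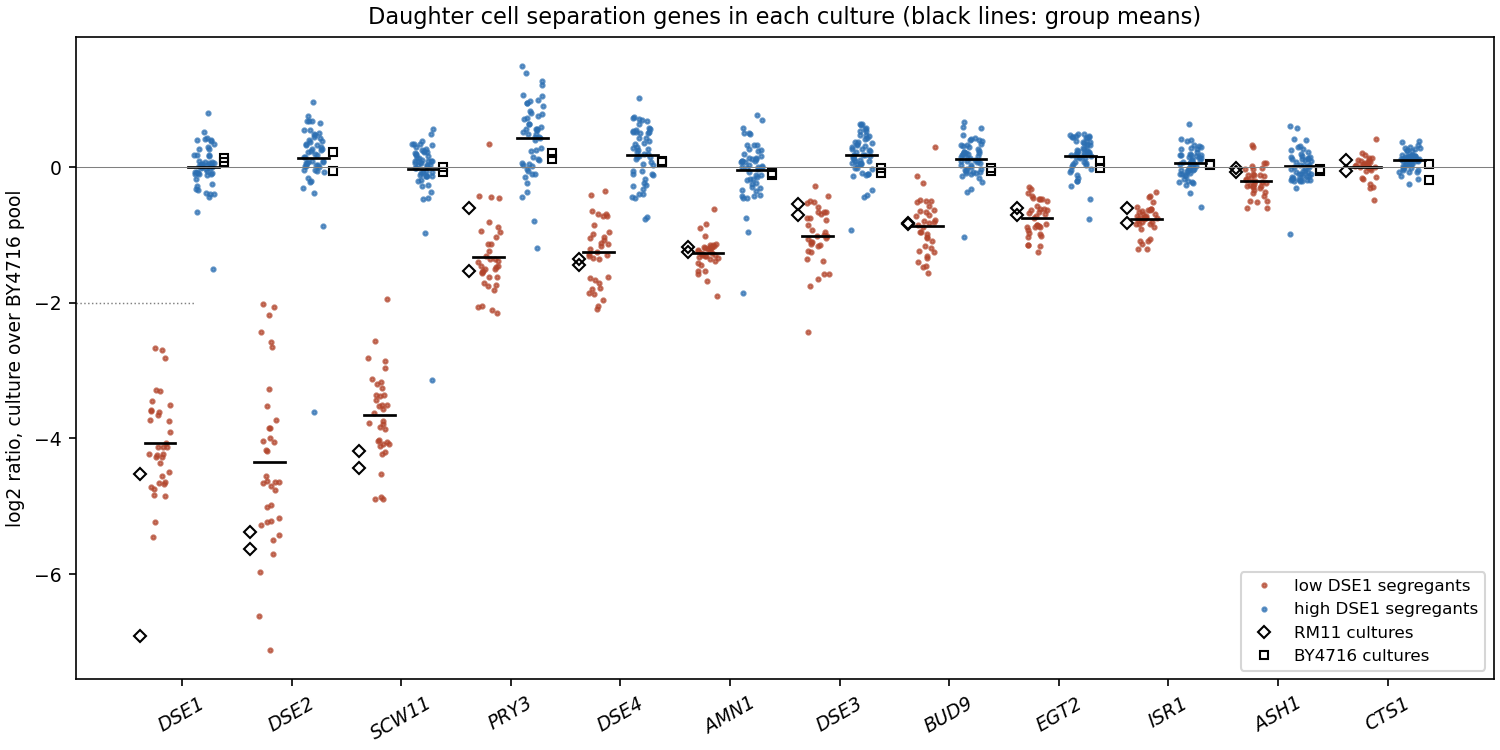
Log2 ratio over the BY4716 pool (vertical axis) for genes of daughter separation, with 1 point per culture, in the 35 low DSE1 segregants, the 51 high DSE1 segregants and the parental cultures. DSE2 and SCW11 form separate clouds apart from segregant 9-6-d, whereas ASH1 and CTS1 overlap almost wholly.

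AMN1 (YBR158W, chromosome II) was itself lower in the low group. It ran from -1.90 through -1.26 to -0.62 in the low group (SD 0.230, n = 35) and from -1.86 through 0.01 to 0.77 in the high group (SD 0.432, n = 51). Of the 51 high segregants 3 lay within the low range, and 2 when 9-6-d, at -1.86, was left out. The difference was -1.23 (SE 0.08, limma adjusted p = 7.03e-24), or 2.34-fold, and -1.26 (SE 0.07) without 9-6-d. Between the parents the AMN1 difference, RM11 minus BY4716, was -1.10.

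DSE4, the endoglucanase of the septum, ran from -2.09 through -1.23 to -0.35 in 34 low segregants and from -0.77 through 0.23 to 1.02 in the high ones, a difference of -1.44 (SE 0.10). PRY3, a cell wall protein, ran from -2.15 through -1.45 to 0.34 and from -1.20 through 0.49 to 1.495, a difference of -1.76 (SE 0.12). The lowest high value of PRY3 was that of 9-6-d, and it was -0.79 without it. Their ranges overlapped at the edges in DSE4 and more broadly in PRY3, where 1 low segregant reached 0.34. DSE3, a daughter-specific protein, differed by -1.19 (SE 0.08), BUD9, a landmark for bud sites at the daughter pole, by -0.99 (SE 0.07), and EGT2, a wall glucanase, by -0.92 (SE 0.06). ISR1, a protein kinase, differed by -0.83 (SE 0.05), and 2 of its 51 high values lay within the low range, or 1 without 9-6-d.

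The remaining members moved little. ASH1, a repressor that keeps HO silent in daughters, differed by -0.22 (SE 0.05, limma adjusted p = 0.00143), with 46 of 51 high segregants inside the low range. CTS1, the chitinase that opens the septum, differed by -0.11 (SE 0.04, adjusted p = 0.0192) over 30 low and 49 high segregants. In CTS1 the groups overlapped throughout. Neither gene differed between the parents by limma, at 0.00 for ASH1 and 0.10 for CTS1.

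A second segregant of the high group also lay low. Segregant 15-6-c had DSE1 at -0.33 but AMN1 at -0.95, SCW11 at -0.98, DSE3 at -0.92 and DSE2 at -0.86. It was among the 2 lowest of the high group in 7 separation genes. Its DSE2 and SCW11 values still lay above those of every low segregant.

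Within the groups, AMN1 was then compared with the other separation genes, with 100000 permutations and adjustment over 20 relations. By Pearson's r 9 relations passed, 8 of them in the high group, such as SCW11 (r = 0.645, rho = 0.303, permutation adjusted p = 0.00247) and DSE2 (r = 0.614, rho = 0.150, adjusted p = 0.00408). In the low group ASH1 alone passed (r = 0.514, rho = 0.452, adjusted p = 0.00523). By Spearman's rho 0 passed, with a lowest adjusted p of 0.0501 and 5 at an unadjusted p under 0.05. Without 9-6-d, 2 relations remained, ASH1 in the low group and DSE4 in the high group (r = 0.405). Segregant 9-6-d is not in the low group, so its omission bears on the high group alone. There r for SCW11 was 0.312. With AMN1 from Cy3-titled and the other gene from Cy5-titled arrays, ASH1 in the low group did not pass (r = 0.346, permutation adjusted p = 0.0933). The 8 relations of the high group passed. When the 2 segregants farthest from the AMN1 median were left out of a group, r was 0.124 for SCW11 and 0.064 for DSE2 in the high group, and 0 of 20 passed. The relations in the high group thus rest on those segregants.

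**Figure D2:**
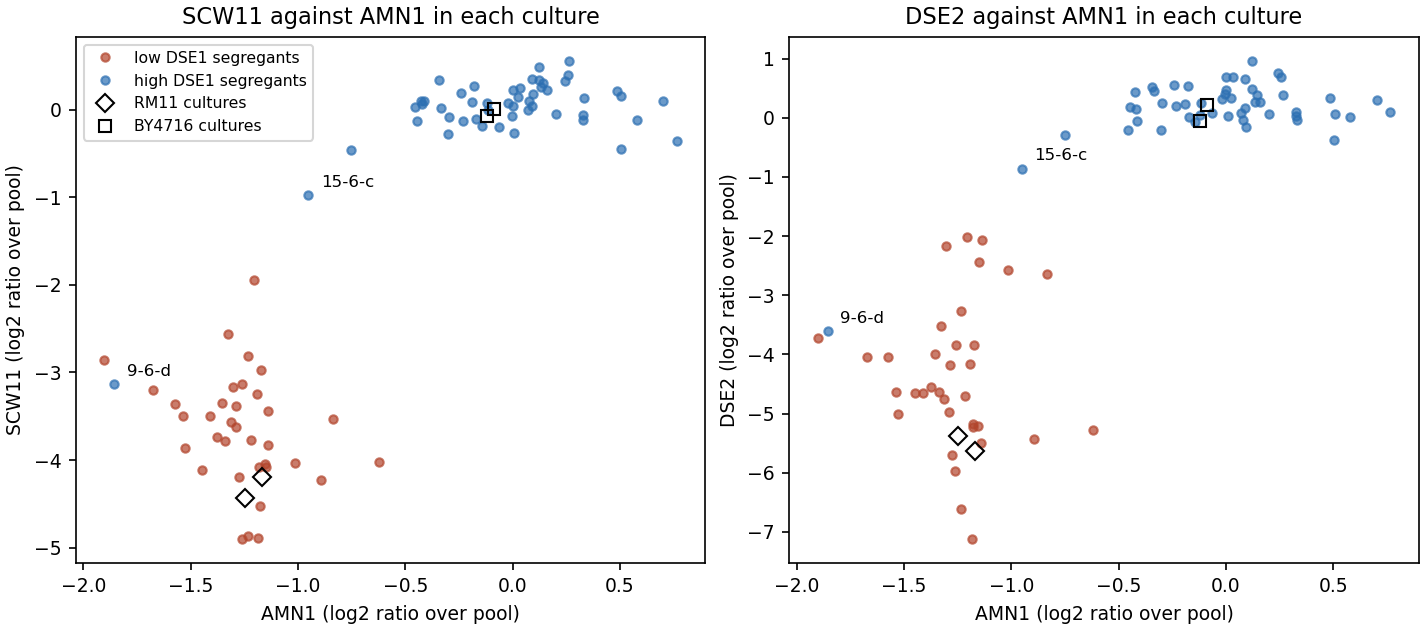
SCW11 (left) and DSE2 (right) against AMN1, both as log2 ratios over the pool, with 1 point per culture and the parental cultures in outline. The low and high DSE1 segregants form 2 clouds, and segregant 9-6-d, of the high group by its mean DSE1, lies among the low ones with AMN1 at -1.86.

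Over all genes, large falls were few and sharply tested, while large rises were more numerous and widely spread. With a difference above 1.5-fold, 16 called genes were lower and 40 higher. Of these, 14 of the 16 lower genes but 2 of the 40 higher genes had a limma adjusted p below 1e-06. Among called genes the median size of a difference was 0.20, or 1.15-fold. No gene divided the groups without overlap (0 of 5557, 0%), and without 9-6-d 3 did (0.054%), DSE2, SCW11 and RMA1.

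RMA1, a gene on chromosome XI for a protein related to folylpolyglutamate synthetases, ran from -2.82 through -1.91 to -1.15 in the low group and from -2.06 through -0.21 to 0.44 in the high group, where the lowest value without 9-6-d was -0.79. The difference was -1.67 (SE 0.08, limma adjusted p = 2.77e-31), and -3.26 for RM11 minus BY4716. SUN4, a wall protein of the SUN family that takes part in septation, ran from -2.83 through -1.64 to 0.24 and from -1.91 through 0.06 to 0.86, and the lowest high value without 9-6-d was -1.22. It fell by 1.68 (SE 0.11, adjusted p = 3.06e-23). Of 51 high segregants 40 lay within the low range, or 39 without 9-6-d, since the highest low value was 0.24. NGL2, an endonuclease of ribosomal RNA processing, fell by 1.19 (SE 0.10), with a lowest value of -4.33 in 1 low segregant. AGP2, a plasma membrane protein of carnitine and polyamine uptake, fell by 1.66 (SE 0.19) with ranges that overlapped almost wholly. HPF1, a wall mannoprotein, differed by -0.67 (SE 0.26, adjusted p = 0.0499), a borderline call that ended after median centring of the arrays with a difference of -0.66 (adjusted p = 0.0551), and OPT2, an oligopeptide transporter, by -0.60 (SE 0.17).

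The rises were led by LYS2, an enzyme of lysine synthesis that BY4716 lacks, at 1.97 (SE 0.46, limma adjusted p = 0.00122, 34 low and 47 high segregants). RTC2, a vacuolar transporter of cationic amino acids, stood at 1.16 (SE 0.26) and DDR2, a stress protein, at 1.13 (SE 0.29). NFG1, a regulator of filamentous growth, ran from -0.71 through 0.91 to 2.12 in the low group and from -1.31 through -0.16 to 2.61 in the high group. Its rise of 1.07 (SE 0.14, adjusted p = 2.69e-09) overlapped broadly. ARG1 and ARG3, of arginine synthesis, stood at 1.11 (SE 0.36) and 0.84 (SE 0.29). FMP45 (1.06), GRE1 (1.05), FDH1 (0.99), PGM2 (0.86), RTC3 (0.85), PRM8 (0.85), ALD2 (0.81) and ATG41 (0.80) followed, each with low and high segregants spread over several log2 units. With the LYS2 state of each segregant as a covariate, ARG1 stood at 1.11 (limma adjusted p = 0.0631), FMP45 at 0.95 (0.0703), FDH1 at 0.86 (0.133), GRE1 at 0.85 (0.166) and ATG41 at 0.61 (0.164). These 5 genes no longer passed, while the differences of ARG1, FMP45 and FDH1 stayed nearly as large. That fit took only the 34 low and 47 high segregants with a LYS2 value. PRM8 did not pass on the arrays of either dye alone, at 0.48 (adjusted p = 0.328) on Cy3-titled and 0.91 (0.0541) on Cy5-titled arrays.

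Chromosome II was examined next, because genes close together on a chromosome are mostly inherited together. The parent of origin was not measured in DNA. Of the chromosome II genes, only LYS2 had its state, read from RNA, tested between the groups. RM11-like LYS2 was found in 23 of 34 low and 13 of 47 high segregants, as given below. Of the 24 genes within 12 places of AMN1, 13 were called (54.2%), 8 lower and 5 higher. At 13 to 25 places 8 of 24 were called (33.3%), at 26 to 50 places 11 of 44 (25%), at 51 to 100 places 15 of 87 (17.2%) and farther away 24 of 196 (12.2%). On the other chromosomes 1134 of 5181 were called (21.9%), and on chromosome II as a whole 72 of 376 (19.1%).

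A run of 4 adjacent genes, 8 to 11 places before AMN1, was higher in the low group. YSW1, a gene of spore formation, had -0.14, 0.48 and 0.84 as lowest, median and highest values in the low group, and -0.69, -0.17 and 0.32 in the high group. Its difference was 0.61 (SE 0.05, limma adjusted p = 2.31e-19), and 23 of 51 high segregants lay within the low range. TBS1, a putative zinc cluster protein, differed by 0.50 (SE 0.05, adjusted p = 6.46e-13), ARA1, an arabinose dehydrogenase, by 0.46 (SE 0.09) and RTC2 by 1.16. Between the parents ARA1 alone of the 4 was called, at 0.93 in RM11, and YSW1 (-0.21) and RTC2 (-0.26) had the opposite sign without a call.

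The other called genes within 12 places of AMN1 were lower, except SSE2. CNS1, a cochaperone gene 3 places before AMN1, differed by -0.45 (SE 0.08), RPB5, of the RNA polymerases, by -0.19 (SE 0.07) and TOS1, a wall protein gene 4 places after, by -0.38 (SE 0.06). EXO5, a mitochondrial exonuclease, differed by -0.27, TYR1, of tyrosine synthesis, by -0.25 and CSH1, of sphingolipid synthesis, by -0.23. IFA38, of long-chain fatty acid synthesis, followed at -0.20 and PEX32, of peroxisomes, at -0.18. SSE2, an Hsp110 chaperone 12 places after AMN1, was higher by 0.37 (SE 0.14, limma adjusted p = 0.0479). With the LYS2 state as a covariate the differences of SSE2 and RPB5 were as large, at 0.39 and -0.20, and no longer passed (adjusted p of 0.0938 and 0.0672). The other 11 genes in the window, among them the cyclin-dependent kinase gene CDC28 at -0.07 and the adjacent ICS2 at -0.22 (adjusted p = 0.0590), did not pass. Without 9-6-d ICS2 passed, at -0.23 (adjusted p = 0.0492). Of the 13 called neighbours 2 were also called between the parents, ARA1 and EXO5 (-0.45), both in the same direction, and EXO5 lost that call after quantile normalization (adjusted p = 0.0974).

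**Figure D3:**
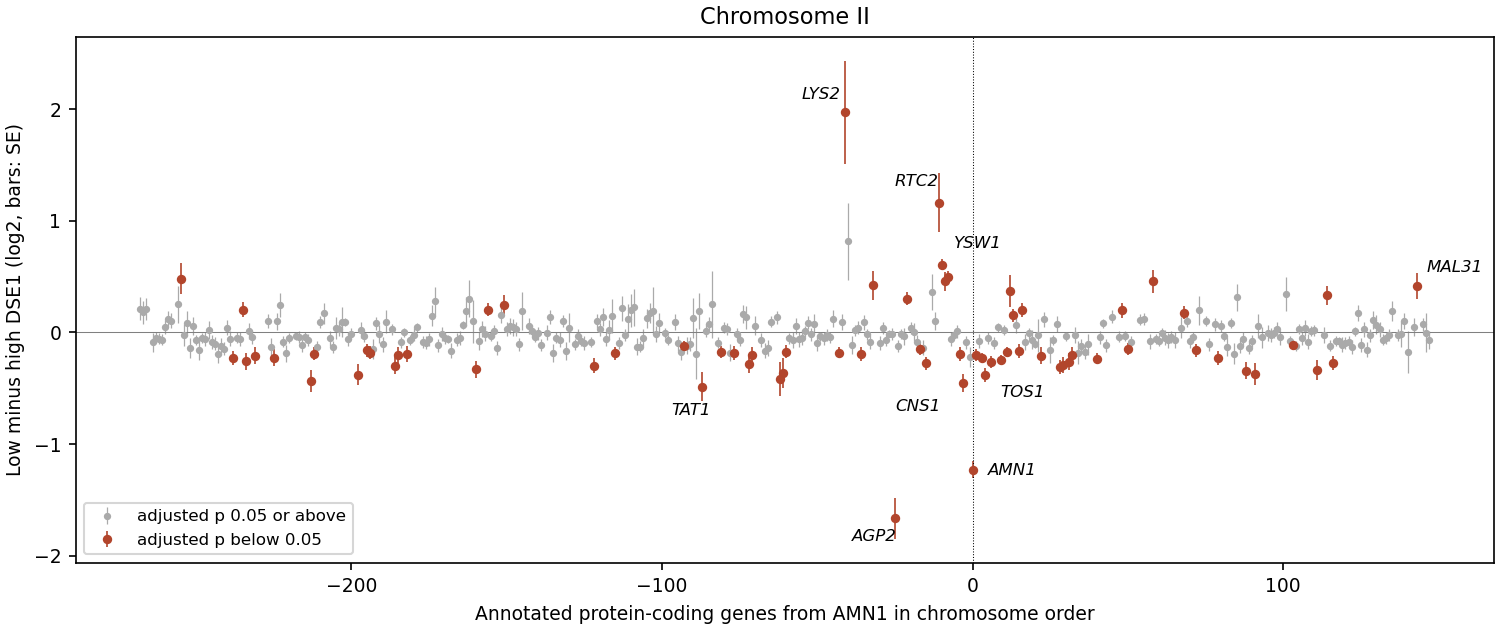
Difference between low and high DSE1 segregants (log2, vertical axis) for genes of chromosome II by their distance from AMN1 in genes (horizontal axis). AMN1 stands at -1.23, AGP2 at -1.66 and LYS2 at 1.97, and called genes are denser near AMN1.

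Other genes of the chromosome whose levels split by parent were set against the DSE1 groups. These 4 genes were chosen after their values were seen. A segregant was called RM11-like where it lay nearer to the RM11 mean than to the BY4716 mean, or, for LYS2, nearer to RM11 than to the pool. AGP2, 25 genes away, matched the group in 75 of 86 segregants (87.2%), and LYS2, 41 genes away, in 57 of 81 (70.4%). TAT1, an amino acid permease 87 genes away, matched in 55 of 86 (64%) and MAL31, a maltose permease 143 genes away on the other side, in 59 of 86 (68.6%). AGP2 was RM11-like in 29 of 35 low and 5 of 51 high segregants. For TAT1 these counts were 12 of 35 and 8 of 51, so most low segregants did not match, and for MAL31 21 of 35 and 13 of 51. The share of matches expected of a gene unrelated to the groups was not worked out. Values above 0.3 for the whole chromosome were found in 1 low and 3 high segregants, and without these 4 the count of called genes was 1115 in place of 1206.

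Other markers that differ between the parents were compared between the groups with two-sided Fisher's exact tests, adjusted over 6 markers. LYS2 lies on chromosome II, 41 genes from AMN1, and the other 5 lie on other chromosomes. RM11-like LYS2 was found in 23 of 34 low segregants (67.6%) and 13 of 47 high segregants (27.7%), with an exact adjusted p of 0.00354. LEU2 was RM11-like in 21 of 35 against 23 of 51, URA3 in 19 of 35 against 25 of 51 and HO in 22 of 35 against 25 of 51. STE3, a receptor of alpha cells, was RM11-like in 16 of 35 against 17 of 51 and the asparaginase gene ASP3-1 in 20 of 35 against 22 of 51. Each of these 5 leaned to RM11 in the low group, and none passed, with adjusted p from 0.327 to 0.666.

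Lysine synthesis was examined beside this uneven LYS2 state. Of 9 lysine genes tested 5 were higher, against 8.62% over all genes, with a list median of 0.35. These were LYS2, LYS1 (0.60), LYS20 (0.46), LYS21 (0.35) and LYS14 (0.19), the last a transcription factor and the others enzymes. Without 9-6-d 7 passed, with LYS9 (0.37) and LYS12 (0.23) added. With the LYS2 state of each segregant as a covariate in limma, 246 of 5553 genes were called higher. Of these 9 lysine genes 0 passed, and 1 had an unadjusted p under 0.05. For LYS2 itself this outcome was fixed in advance, because its own value set the state. LYS1 then stood at 0.34, with an adjusted p of 0.310, and LYS20 at 0.27, with 0.275. AMN1 (-1.23), DSE2 (-4.46) and SCW11 (-3.60) hardly moved under the same covariate. Over all genes the count fell from 1206 to 665, and to 691 with the states of LEU2, URA3, LYS2, HO and STE3 together. Both fits took only the 34 low and 47 high segregants with a LYS2 value, and the LYS2 state itself differed between the groups. The SE of AMN1 was 0.091 with the LYS2 covariate and 0.079 without it. How far these points account for the lost calls was not tested.

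Genes of growth and stress also differed, in larger shares than the 13.1% lower and 8.62% higher over all genes. In the low group 16 of 19 tested genes of ribosome biogenesis were lower and none higher, with a median of -0.27, such as RRP12 (-0.37) and NOP12 (-0.34), both of ribosome assembly. Of 21 general stress genes 11 were higher and none lower, with a median of 0.61, such as the catalase CTT1 at 1.10 (SE 0.35) and DDR2 at 1.13. The mean of the stress list per segregant ran from -2.02 through 0.45 to 1.97 in the low group and from -1.83 through -0.40 to 1.65 in the high group. For ribosome biogenesis it ran from -0.71 through -0.27 to 0.43 and from -0.65 through 0.11 to 0.54. Single segregants of both groups thus covered nearly the same range in both lists. In the parents the ribosome biogenesis mean was -0.35 and -0.27 in BY4716 and -0.30 and 0.05 in RM11, so RM11 was not the lower strain. The stress mean was 0.47 and 0.47 in BY4716 and 1.13 and 0.69 in RM11. With the LYS2 covariate CTT1 stood at 1.00 and no longer passed (limma adjusted p = 0.0821). With that covariate the list counts were 8 for stress and 15 for ribosome biogenesis. The part of growth state in the smaller differences between the groups was not tested.

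Genes that act before and beside the separation genes moved much less. In the RAM network 0 of 7 tested genes passed by limma, with 3 at an unadjusted p under 0.05 and a median of 0.08, and 2 were called higher after median centring of the arrays. The shares below are read against 21.7% called over all genes, 13.1% lower and 8.62% higher. Of 15 genes of mitotic exit 4 were lower, CDC5, CLB2, SPO12 (-0.17) and BFA1 (-0.17), and 2 higher, MOB1 (0.17) and CDH1 (0.11), with a median of -0.06. Of 15 transcripts that peak between mitosis and G1, 2 were lower, the inhibitor gene SIC1 (-0.20) and the cyclin gene CLN3 (-0.16), with a median of -0.05. Of 11 genes of G1 cyclins and budding 5 were lower, such as the cyclins CLN2 (-0.32) and CLB6 (-0.26), and the landmark gene BUD8 was higher (0.13). These sizes are all under those of DSE3 or EGT2. BFA1 and CLN3 did not pass after median centring of the arrays (adjusted p of 0.0734 and 0.0554), nor BFA1 without 9-6-d (0.0504). With the LYS2 state as a covariate 3 mitotic exit genes passed in place of 6, and SPO12 (-0.16, adjusted p = 0.0521) and BUD8 (0.13, 0.117) did not. CDH1 did not pass on Cy5-titled arrays alone (0.10, adjusted p = 0.205).

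Among 15 glucanases and other wall remodelling genes 2 were lower, SUN4 and the transglycosylase UTR2 (-0.25), and 2 higher, NCA3 (0.63) and UTH1 (0.31), both of the SUN family, as is SIM1, which stood at 0.05 (adjusted p = 0.666). These 4 called genes of 15 are near the background of 21.7%. NCA3 did not pass with 5 marker states as covariates (0.52, adjusted p = 0.0725). Without 9-6-d 5 were lower, with EXG1 (-0.25), GAS1 (-0.20) and GAS3 (-0.18) added. UTR2 did not pass after median centring (limma adjusted p = 0.0582). None of 5 flocculin genes, whose products hold cells together by another route, passed by limma, and 0 had an unadjusted p under 0.05. For 10 histone genes both counts were also 0, with medians of 0.12 for flocculins and 0.02 for histones. Mating genes passed in 0 of 7 a-specific cases, with 2 at an unadjusted p under 0.05, and in 0 of 5 alpha-specific cases, with 0. Of 14 pheromone response genes 1 was higher, PRM5 (0.60).

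**Figure D4:**
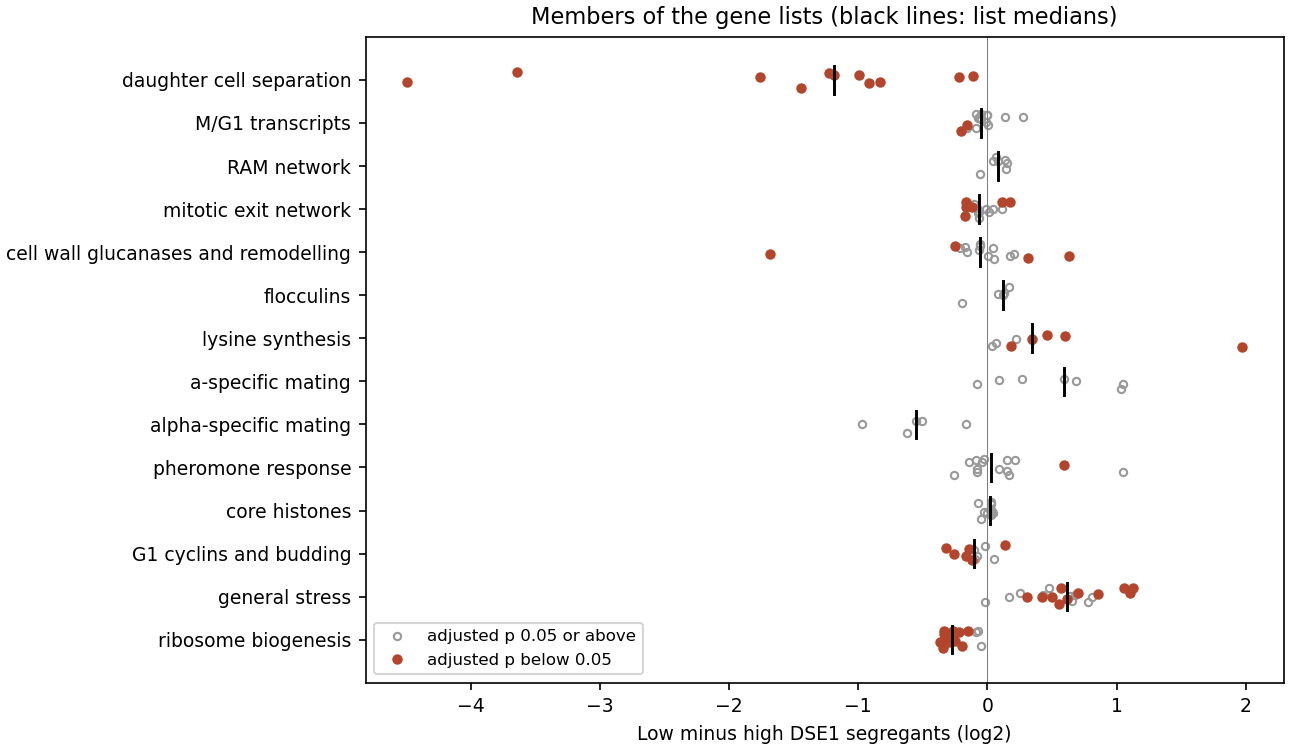
Difference between low and high DSE1 segregants (log2, horizontal axis) for each tested member of the gene lists, filled where the limma adjusted p was below 0.05, with black lines at list medians. Daughter separation has a median of -1.19, ribosome biogenesis -0.27 and general stress 0.61.

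The parental cultures took no part in forming the groups and were compared by the same measure. RM11 differed from BY4716 in 946 of 5169 genes (18.3%), 394 lower (7.62%) and 552 higher (10.7%), with 2 cultures per strain. After quantile normalization 333 were lower and 301 higher. The count rested on few cultures: it was 228 or 236 without the first or the second BY4716 culture and 1975 or 1410 without the first or the second RM11 culture. DSE2 was at -5.59, SCW11 at -4.28, DSE4 at -1.48, BUD9 at -0.80, ISR1 at -0.75, EGT2 at -0.70 and DSE3 at -0.57, all called and in the direction of the low group. DSE3 lost that call after quantile normalization (limma adjusted p = 0.0542), and EGT2 on Cy3-titled arrays alone (-0.58, limma adjusted p = 0.0569). PRY3 was at -1.23 between parents, with a limma adjusted p of 0.0552. Among the other large falls, AGP2 stood at -2.61, SUN4 at -2.49 and NGL2 at -0.87, each called.

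Of the 1206 genes called between segregant groups, 1151 had a parental value, and 147 of these (12.8%) were called between the parents, 112 in the same direction and 35 in the opposite one. Among genes not called between segregant groups 796 of 4005 (19.9%) were called between the parents. Of 53 called genes above 1.5-fold with a parental value, 35 had the same sign between the parents. Among the 53, 23 were called between the parents in the same direction and 5 in the opposite one. Those 5 were PRM8 (-2.64 in RM11), ATG41 (-1.93), PRM5 (-1.67), YDL124W (-1.29) and ARG3 (-1.19), all higher in the low group. Of these, PRM5 alone kept its segregant call under every alternative tried. NFG1 (1.79), CTT1 (2.48), FMP45 (2.51) and DDR2 (1.38) were higher in RM11 too, though DDR2 did not pass after quantile normalization (limma adjusted p = 0.0658).

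**Figure D5:**
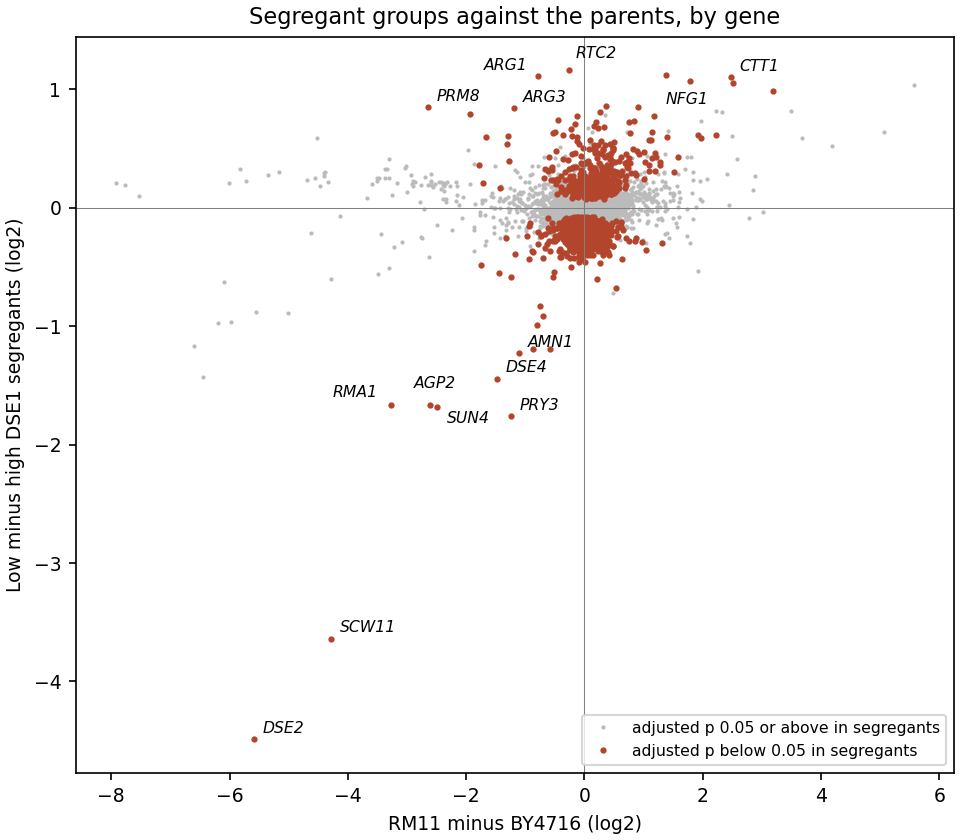
Difference between low and high DSE1 segregants (vertical axis) against RM11 minus BY4716 (horizontal axis), both log2, for single genes. DSE2 and SCW11 lie low on both axes, and PRM8, ATG41 and ARG3 lie higher in the low group but lower in RM11.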

How the data were processed

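The values, as deposited by the authors, are log ratios of a culture over the BY4716 pool with a mean of 0 on every array, read here as log2 values because their base is not stated. Scanner, background correction and normalization are not given in the sources used here. Of 7085 probes, 5645 had 1 gene symbol, which gave 5605 genes, 40 of them averages of 2 probes. The RefSeq table of assembly R64 served for names and gene order only. An array held 3769 to 6570 values, and precision is limited by the number of arrays and cultures.

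Both arrays of a culture were averaged. Genes with a value in at least 80% of each group were tested with limma 3.58.1 in R 4.3.3, with DSE1 left out of the test, at a Benjamini-Hochberg adjusted p below 0.05. Parental tests took genes with a value in all 4 cultures. The labels name no separate cultures of a segregant. BY4716 has no LYS2 value, so the pool, at 0, stood for it in the LYS2 state. Fits with that state as a covariate left out segregants without a LYS2 value, which left 34 low and 47 high. Correlations and their permutations used numpy 2.4.6, with ranks from scipy 1.17.1, and Fisher's exact tests used R 4.3.3. The steps were tested on simulated data.

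The groups, members, lists and tests were chosen with earlier results of these data known. Genes were named by rule: the 15 largest falls and 15 largest rises past the threshold, the separation list, 12 genes either side of AMN1, up to 2 members in each direction of other lists, the 5 largest differences opposite to the parents, and the strain markers. CDC5, CLB2, LYS9, LYS12, LYS14, LYS20, LYS21, EXG1, GAS1, GAS3 and SIM1, which complete a count, and TAT1, MAL31 and the genes beside separation genes were named after their values were seen. Alternatives covered the dyes, the limit, missing values, scaling, covariates and left-out cultures.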

Additional observations from a re-analysis of the deposited data

How the results depend on the processing

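The count of 1206 genes between segregant groups was 799 from Cy5-titled arrays alone, 665 with the LYS2 state as a covariate, 691 with 5 marker states as covariates and 56 with a minimum difference of 1.5-fold. Under the other alternatives it lay between 810, with the limit at -3, and 1253, where segregant 9-6-d was left out or counted as low. Those last alternatives were chosen after seeing the data. Groups from one dye and values from the other gave 871 and 1076. Median centring gave 607 lower and 580 higher, against 727 and 479. The count of 946 between parents was 533 from Cy3-titled arrays alone and 228 to 1975 with 1 parental culture left out. The first BY4716 culture left out gave 228 and the second 236, while the first RM11 culture left out gave 1975 and the second 1410. In these fits the spread of the strain with 1 culture is borrowed from the other. With the culture number as a replicate block it was 927. The deviations of the same-numbered BY4716 and RM11 cultures correlated with r of 0.201 over only 2 pairs, so the numbers were not taken to pair them. The 9 relations with AMN1 were 2 without 9-6-d, 0 without the 2 segregants farthest from the AMN1 median and 8 across dyes. LYS2 was the 1 marker past the threshold under each alternative. Among the counts of list members, separation genes lower numbered 9 to 11, the lowest where 9 were tested, ribosome biogenesis genes 13 to 16 but 0 with the 1.5-fold minimum, stress genes 8 to 13 but 6 with it, and lysine genes 0 to 7. Among the genes named by rule, no called difference changed its sign under these alternatives. Changes of sign in differences without a call, and in genes not named by rule, were not followed. DSE2, SCW11, AMN1, DSE3, DSE4, EGT2, PRY3, BUD9, ISR1, SUN4, RMA1 and YSW1 kept their calls wherever tested. Leaving aside the 1.5-fold minimum, some genes named by rule lost their segregant calls under at least 1 alternative. They were ARG1, ARG3, ATG41, BFA1, BUD8, CDH1, CLB6, CLN3, CTT1, FDH1, FMP45 and GRE1. So did HPF1, IFA38, LYS1, LYS2, NCA3, OPT2, PRM8, RPB5, SPO12, SSE2, UTR2 and YDL124W. LYS2 did so only with its own state among the covariates, an outcome fixed in advance. Of genes not named by rule, LYS14, LYS20 and LYS21 lost theirs with the LYS2 covariate (limma adjusted p of 0.156, 0.275 and 0.198). CDC5 and CLB2 enter only through the counts of their list. ICS2 passed without 9-6-d. The causes were not tested. Intensities were not used here, so signal over background is unknown.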

Other observations

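Genes next to the separation genes on their chromosomes were examined after the values were seen. Of 19 such genes tested outside chromosome II, 9 were called by limma (47.4%), 6 lower and 3 higher, against 21.7% of all genes. COG4, of the Golgi transport complex, is read away from ISR1 from the same stretch between the genes and was lower by 0.32 (log2 -0.32, SE 0.02, adjusted p = 1.95e-19). PFA3, a palmitoyltransferase gene beside EGT2, stood at -0.26, CGR1, of ribosome assembly, beside SCW11, at -0.27 and YLR287C, beside CTS1, at -0.24. CWH41, of glycan trimming, on the other side of SCW11, and RPC10, of the RNA polymerases, beside DSE2, stood at -0.13 and -0.15. Higher were PRY1, a relative of PRY3 beside it, at 0.77 (SE 0.18, adjusted p = 0.000968), KSS1, a kinase gene beside BUD9, at 0.24 and CHS7, of chitin synthesis, beside DSE2, at 0.17. PRY3 and PRY1 thus differed in opposite directions.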
